A study of Canis lupus familiaris with 6 samples.

Results

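The most abundant transcripts of MDCK cells were taken from a list of 12851 dog genes measured by poly-A RNA sequencing. They are the 100 rows with the highest mean over the 3 wild-type libraries, after some rows were left out by symbol. Left out were 154 rows with symbols starting with RPL, RPS, MRPL or MRPS, called ribosomal protein rows below, and 18 named symbols. Of the 18, 14 matched a row. E-cadherin, vimentin, the cytoplasmic actins and the main glycolytic enzymes are among those named symbols. The glycolytic gene PKM and the keratin KRT19 had no row under their symbols. A named gene whose row has only an Ensembl identifier would not have been left out. Whether any of the 100 is such a row was not tested. Of the 100 members, 89 carry a gene symbol and 11 have only an Ensembl identifier. MDCK type II is a canine kidney epithelial line that forms polarized sheets. From this line, 3 libraries were made from cells with E-cadherin knocked out (KO) and 3 from wild-type cells (WT). Both were grown in the same serum-containing medium; the labels give 70 to 80% confluency in one place and confluent dishes in another. The number of KO clones is not stated, nor is it stated that replicates are separate cultures. The p-values below therefore reflect variation among 3 libraries a group and no more, and that variation may be technical.

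In most cells a small number of genes supplies a large part of the messenger RNA. Those genes usually encode the machinery of translation, the cytoskeleton, chaperones and RNA-binding proteins, and in an epithelium also the proteins that hold cells to the basement membrane. Such genes are often treated as unchanging references, and because they carry many reads their levels are measured with small errors. The values are normalized counts, that is, reads scaled between libraries. Reads rise with transcript length, and no transcript lengths were at hand, so a share below is a share of reads and the order of genes is not an order of molecules.

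The KO libraries held 18281549 to 18681821 normalized counts each and the WT libraries 19002399 to 19386796. The targeted CDH1 transcript stood at 2.95% of its WT level in the KO libraries. Kidney epithelial markers were present in both groups: 11 of 14 listed genes had a row, with summed levels of 45439 to 47158 in KO libraries and 48806 to 52267 in WT libraries. Of 8 leukocyte markers, CD14 was at 46.8 to 49.8 in KO libraries and 17.7 to 22.8 in WT libraries, and the CD79A row is described with the turnover below. PDGFRA, for fibroblasts, was at 28.7 to 40.4 in KO libraries and 17.7 to 20.6 in WT libraries. FLT1, for endothelium, was at 2780 to 2998 in KO libraries and 5245 to 5443 in WT libraries. The other listed fibroblast, endothelial and leukocyte markers, and the 8 muscle and nerve markers, had no row under their symbols.

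Together the 100 members took 14.4, 14.6 and 14.9% of the 3 KO library totals, against 15.8, 15.0 and 16.04% of the 3 WT library totals. Every KO library lay below every WT library, with means of 14.6 ± 0.245% in KO and 15.6 ± 0.552% in WT (SD, n = 3 each). One row without a symbol, ENSCAFG00845018969, accounted for much of the spread: it alone took 1.69, 1.70 and 2.00% of the KO totals, against 2.16, 1.48 and 2.23% of the WT totals. Without it the other 99 members took 12.8 ± 0.0928% in KO and 13.7 ± 0.145% in WT (SD, n = 3 each). In bulk RNA, fewer cells of a type and less RNA per cell cannot be told apart. The gap depended on which group chose the members. When the 100 rows were chosen by their KO mean instead, they took 15.0 ± 0.266% of KO and 15.2 ± 0.553% of WT totals, and the groups overlapped. The 83 rows found by both choices took 13.57 ± 0.249% of KO and 13.96 ± 0.541% of WT totals. For comparison, the ribosomal protein rows that were left out took 5.31 ± 0.0560% of KO and 5.25 ± 0.0895% of WT totals, and the 14 matched named symbols 4.74 ± 0.0468% of KO and 4.32 ± 0.0723% of WT totals (SD, n = 3 each).

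**Figure D1:**
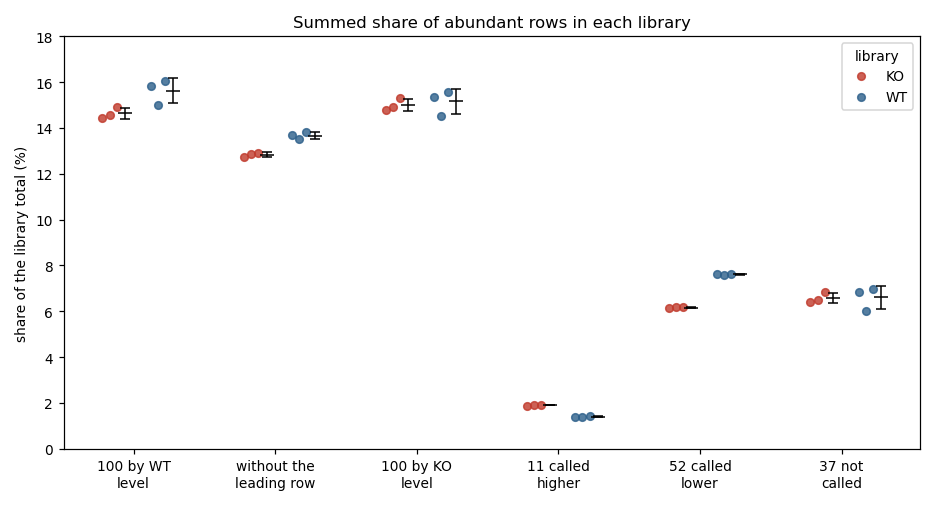
Share of each library total (%) taken by sets of abundant rows, with KO libraries left of WT libraries; points are libraries, and the bar beside each trio is the mean ± SD of 3. The 100 rows chosen by WT level sum to 14.4 to 14.9% in KO and 15.0 to 16.04% in WT, whereas the 100 chosen by KO level overlap between groups.

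Of the 100 members, 11 were called higher in KO, 52 were called lower and 37 did not pass, at an adjusted p under 0.05 in limma fitted over 12349 genes. Among all genes tested, 23.6% were called higher and 24.5% lower, 48.1% in all. The WT values that chose the members also enter each fold change, which tilts the members' counts toward lower, so the counts are a description of this set and not evidence about it. The same tilt holds for the members' counts and summed shares given by group below. Among the 83 rows that both groups place in their 100, 11 were called higher and 35 lower; among the 100 chosen by KO level the counts were 21 and 35. Scaling also matters at this level of change. With every library set to the same total, 20 members were called higher and 46 lower, against 28.9% and 19.2% of all genes under that scaling. Counts over whole lists below are to be read beside the same shares of all genes. These are 23.6% higher and 24.5% lower, or 28.9% and 19.2% with equal library totals. No list was tested against them. The authors' deposited table has 12 members higher and 52 lower at its own adjusted p under 0.05, as were 21.9% and 23.1% of the genes tested here, 45% in all. Most calls were small: 48 of the 63 called members differed by less than 1.5-fold and 26 by less than 1.2-fold. Past 1.5-fold stood 3 higher and 12 lower members, where 10.4% and 6.6% of all genes tested did. The median log2 fold change was -0.14 over the members and -0.01 over all genes tested, and the median SE was 0.0398 over the members and 0.0777 over all genes. KO and WT libraries did not overlap for 13 members that were above and 58 that were below, against 27.8% and 28.6% of all genes, 56.4% in all.

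The members that fell most served very different functions. SNRPN, which encodes a small nuclear ribonucleoprotein and is imprinted in human and mouse, had 2911, 3096 and 3175 normalized counts in the KO libraries, against 16516, 15632 and 16352 in the WT libraries. That is a 5.28-fold fall (log2 fold change -2.40, SE 0.045, adjusted p = 1.45e-13), and in the KO ranking it stood at place 1157. LAMB3, taken up with its group below, also fell more than 2-fold. TSC22D1, a leucine-zipper transcription regulator, had 11602, 12071 and 11578 in the KO libraries, against 20828, 20878 and 20409 in the WT libraries, a 1.76-fold fall (log2 fold change -0.82, SE 0.036, adjusted p = 6.25e-10). At the other end, NQO1, a cytosolic quinone reductase induced by oxidative stress, had 48491, 47450.0 and 47638 normalized counts in the KO libraries, against 27884, 27416 and 27970.4 in the WT libraries, 1.72-fold higher (log2 fold change 0.79, SE 0.031, adjusted p = 2.40e-10). In each of these genes the 3 KO values lay well clear of the 3 WT values. FTL, the light chain of the iron store ferritin and the other member of the redox and iron list, was at 37909 ± 1342 in KO and 37693 ± 2908 in WT (log2 fold change 0.01, adjusted p = 0.883). Of the 29 tested genes on that list 7 rose and 9 fell, with a median log2 fold change of -0.01; with equal library totals 9 rose and 8 fell.

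**Figure D2:**
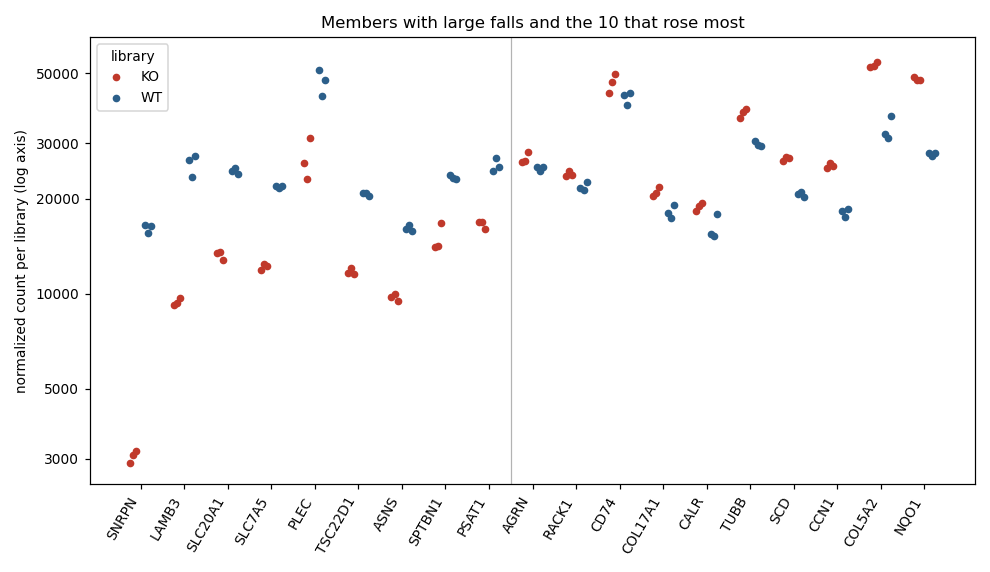
Normalized counts in each library (log axis) for members with a symbol and large falls, left of the grey line, and the 10 with the largest rises, right of it; red points are KO libraries and blue points WT libraries. SNRPN has the widest gap, and all genes shown have KO and WT points that do not overlap.

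Matrix and secreted proteins held 9 members, of which 4 rose, 3 fell and 2 did not pass; their summed share was 1.78 ± 0.0290% of KO and 1.77 ± 0.0530% of WT totals (SD, n = 3 each). Over the whole list 26 of 51 tested genes rose and 19 fell (median log2 fold change 0.21), or 26 and 16 with equal library totals. COL5A2, a chain of fibrillar collagen V, had 52139.5, 52847 and 54109 normalized counts in the KO libraries, against 32109.5, 31080.3 and 36481 in the WT libraries. It stood 1.6-fold higher in KO (log2 fold change 0.68, SE 0.051, adjusted p = 3.86e-07), at place 7 in the KO ranking and 16 in the WT ranking. CCN1, a matricellular protein, had 24963, 26056 and 25475 in the KO libraries, against 18283, 17476 and 18531 in the WT libraries, 1.41-fold higher (log2 fold change 0.49, adjusted p = 1.12e-07). AGRN, the basement membrane proteoglycan agrin, rose 1.08-fold (adjusted p = 0.032), but did not pass without KO replicate 2, KO replicate 3, WT replicate 1 or WT replicate 2, or with limma's trend and robust options off, with adjusted p-values up to 0.158. CLU, the secreted chaperone clusterin, took 0.474% of KO and 0.538% of WT library totals and had 83861, 88701 and 90212 in the KO libraries, against 105382, 97698 and 107215 in the WT libraries (log2 fold change -0.24, adjusted p = 0.000229). LGALS3, the lectin galectin-3, was 1.16-fold lower, with 58226, 59756 and 61727 in the KO libraries, against 70474, 67189 and 70554 in the WT libraries. The metalloproteinase inhibitor TIMP3 and the saposin precursor PSAP did not pass: TIMP3 was at 25392 ± 72.2 in KO and 26229 ± 191 in WT and PSAP at 19620.5 ± 657 in KO and 20159 ± 720 in WT (SD, n = 3 each).

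Members linked to the hemidesmosome, the structure that ties keratin filaments to the basement membrane, did not move together. This grouping was made after the values were seen, and it holds only genes among the members. LAMB3, the beta chain of laminin-332, had 9240.1, 9329 and 9721 normalized counts in the KO libraries, against 26562, 23448 and 27275 in the WT libraries, a 2.73-fold fall (log2 fold change -1.45, SE 0.052, adjusted p = 1.73e-10). PLEC, plectin, which links keratins to the adhesion site, had 25904, 23171 and 31240.5 in the KO libraries, against 51003, 42374 and 47498 in the WT libraries. It fell 1.76-fold (log2 fold change -0.82, adjusted p = 0.00656) with a wide spread among KO libraries, KO replicate 2 being lowest and KO replicate 3 highest. ITGB4, the integrin beta subunit of the structure, was 1.19-fold lower, with 17271, 17495 and 19363 in the KO libraries, against 21992, 20229 and 21886 in the WT libraries (log2 fold change -0.24, adjusted p = 0.00103). COL17A1, its transmembrane collagen, went the other way, with 20483, 20873 and 21878 in the KO libraries, against 18058, 17393 and 19099 in the WT libraries (log2 fold change 0.21, adjusted p = 0.000924). JUP, plakoglobin, shared by desmosomes and adherens junctions, was the other member from the junction and adhesion list and fell 1.48-fold, to 13232, 13965 and 14300.4 in KO libraries against 21228, 19365 and 20984 in WT libraries. Of 40 tested genes on that list 9 rose and 19 fell (median log2 fold change -0.11), or 11 and 16 with equal library totals.

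Actin regulators gave 10 members, of which 6 fell, 4 missed the threshold and 0 rose. Their summed share was 1.06 ± 0.0337% of KO and 1.21 ± 0.0233% of WT totals (SD, n = 3 each). Over the list 9 of 55 tested genes rose and 27 fell (median log2 fold change -0.16), or 14 and 24 with equal library totals. FLNA, the actin crosslinker filamin A, overlapped between groups, with 38686, 37809 and 41679 in the KO libraries, against 41073, 38788 and 41265 in the WT libraries (log2 fold change -0.04, adjusted p = 0.498). SPTBN1, the spectrin beta chain of the membrane skeleton, fell 1.56-fold, with 14108, 14129.8 and 16738 in the KO libraries, against 23806, 23209 and 23112 in the WT libraries (log2 fold change -0.65, adjusted p = 2.81e-06). Smaller falls were seen for the actin bundling protein TAGLN2 (1.21-fold), the membrane linker ezrin, EZR (1.18-fold), and tropomyosin TPM3 (log2 fold change -0.19). The motor chain MYH9, cofilin CFL1 and alpha-actinin ACTN4 did not pass, with log2 fold changes of 0.12, -0.08 and -0.11. MYH9 passed as higher without KO replicate 2 and with equal library totals. ACTN4 passed as lower without KO replicate 3 and without WT replicate 2, and CFL1 passed as lower without WT replicate 2. MYH9 had 27701, 24937 and 30309 in the KO libraries, against 25879, 24422 and 25931 in the WT libraries; as for PLEC and FLNA, KO replicate 2 was lowest and KO replicate 3 highest of the KO libraries. CAPG, an actin filament capping protein that was on no list, fell 1.32-fold, with 16356, 16891 and 17569 in the KO libraries, against 22864, 20618 and 23924 in the WT libraries (log2 fold change -0.41, adjusted p = 2.58e-05).

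Of 4 tubulin members 1 rose, while both lamins fell. The 4 tubulin members summed to 0.627 ± 0.0115% of KO and 0.562 ± 0.00824% of WT totals (SD, n = 3 each). TUBB, a beta-tubulin, had 36056, 37567 and 38406 normalized counts in the KO libraries, against 30549, 29544 and 29335 in the WT libraries, 1.25-fold higher (log2 fold change 0.32, adjusted p = 4.91e-06). TUBA1B, TUBB4B and TUBB2B did not pass, with log2 fold changes of -0.07, 0.08 and 0.07; TUBB4B and TUBB2B passed as higher with equal library totals. Over the microtubule list 2 of 15 tested genes rose and 4 fell (median log2 fold change -0.01), a balance that turned to 7 and 2 with equal library totals. Among intermediate filament genes all 3 members fell. Over that list 1 of 9 tested genes rose and 6 fell (median log2 fold change -0.43), also with equal library totals. LMNA, lamin A/C of the nuclear envelope, had 23834, 24896 and 25584 normalized counts in the KO libraries, against 34027, 30491 and 35822 in the WT libraries, a 1.35-fold fall (log2 fold change -0.43, adjusted p = 2.93e-05). LMNB1, lamin B1, was 1.18-fold lower (log2 fold change -0.24, adjusted p = 0.000209), and the third was PLEC. TMEM43, an inner nuclear membrane protein on no list, fell 1.48-fold, with 10449, 10939 and 10856 in the KO libraries, against 15610.2, 16001 and 16094 in the WT libraries.

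**Figure D3:**
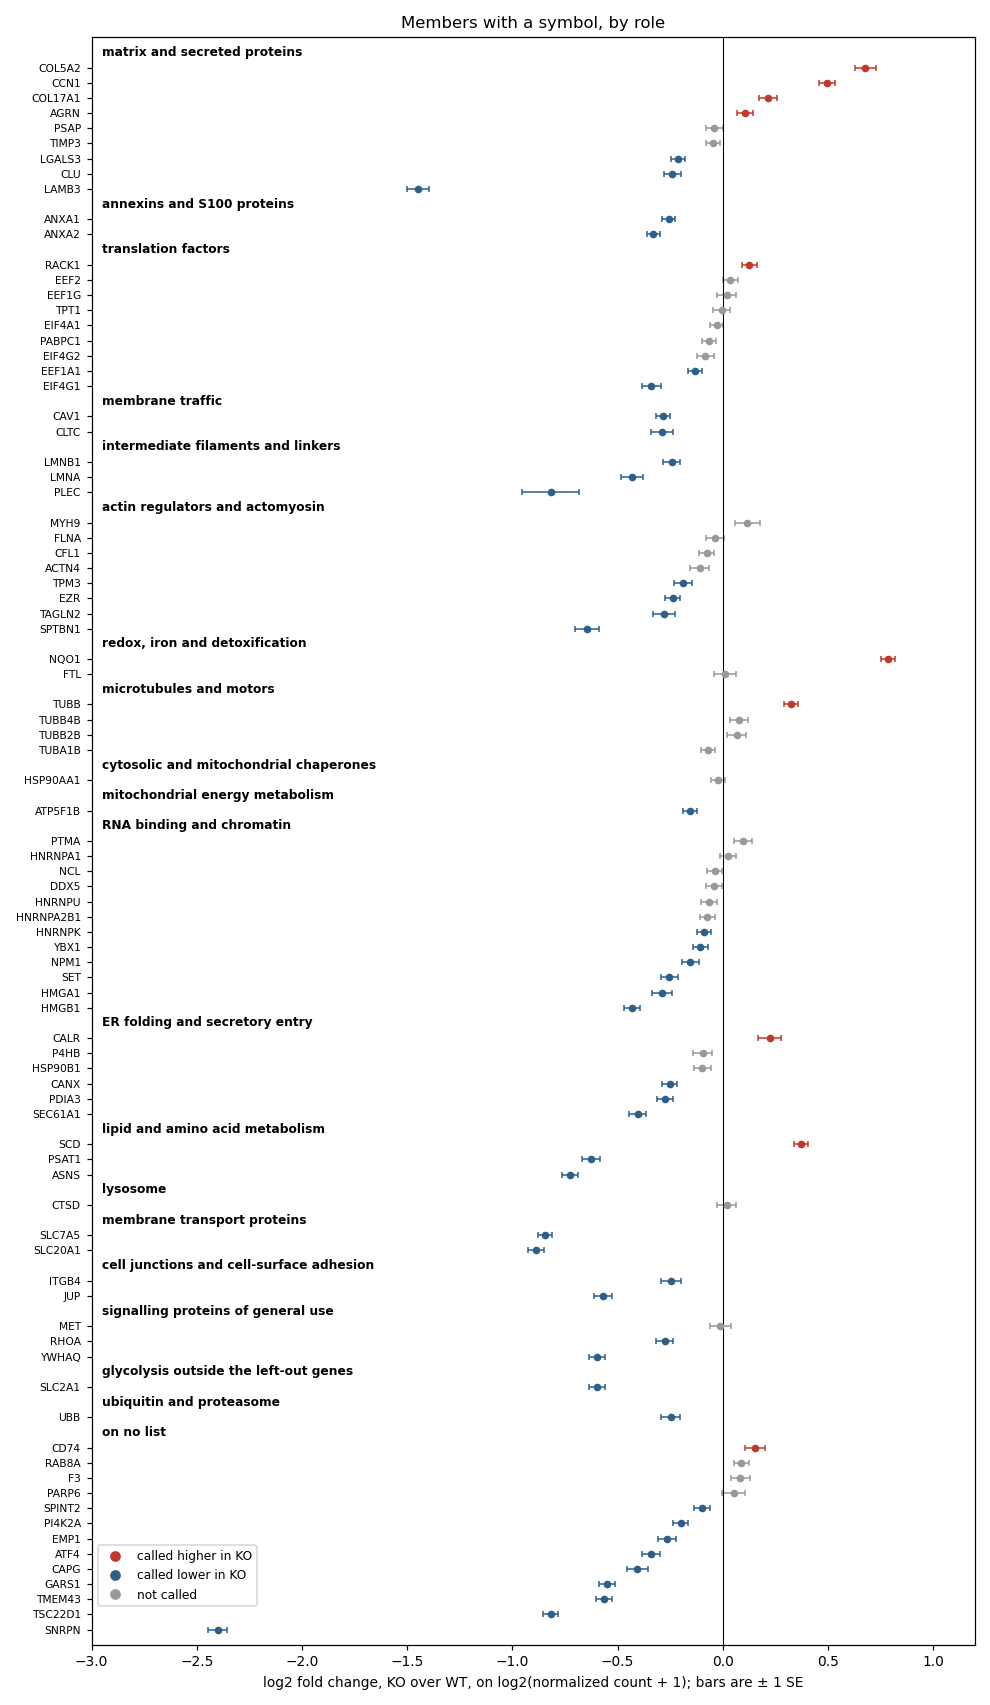
Log2 fold change of KO over WT (± 1 SE) for members with a symbol, grouped by the first list that holds them; red marks genes called higher in KO, blue genes called lower and grey genes that did not pass. Most points lie between -0.5 and 0.5, with SNRPN and LAMB3 far to the left and NQO1 and COL5A2 at the right.

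Both annexin members, calcium-dependent membrane-binding proteins, fell: ANXA2 had 65712, 68661 and 67354 normalized counts in the KO libraries, against 84358, 84704 and 84385 in the WT libraries (log2 fold change -0.33, SE 0.030, adjusted p = 7.39e-07), and ANXA1 was 1.19-fold lower. Their list held 2 rises and 12 falls among 16 tested genes (median log2 fold change -0.35), or 3 and 12 with equal library totals. CAV1, the coat protein of caveolae, had 49745, 49525 and 48003 in the KO libraries, against 59029, 62016 and 58399 in the WT libraries (log2 fold change -0.28, adjusted p = 1.07e-05), and CLTC, the clathrin heavy chain, was 1.22-fold lower (log2 fold change -0.29, adjusted p = 0.000428). Membrane traffic genes as a list were 4 higher and 30 lower of 48 (median -0.20), or 6 and 27 with equal library totals. RAB8A, a small GTPase of transport to the plasma membrane that was on no list, was at 21269 ± 449 in KO and 20013 ± 516 in WT and missed the threshold (log2 fold change 0.09, adjusted p = 0.0595). It passed as higher with equal library totals, without WT replicate 2 and in the authors' deposited table. EMP1, an epithelial membrane protein, and PI4K2A, a phosphatidylinositol kinase of endosomes and the Golgi, fell 1.2-fold and 1.15-fold. SPINT2, a Kunitz-type inhibitor of membrane serine proteases, fell by 0.10 in log2 terms (adjusted p = 0.0424), a call lost without KO replicate 1, KO replicate 2, WT replicate 1 or WT replicate 3, with equal library totals and with limma's trend and robust options off. F3, tissue factor, which starts blood coagulation, was at 16701 ± 732 in KO and 15762 ± 760 in WT and did not pass, except as higher with equal library totals.

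Transporters and nutrient enzymes held several of the largest falls among the members, which were chosen by WT level. All 3 members of the membrane transport list fell, and their summed share was 0.321 ± 0.00547% of KO and 0.459 ± 0.00330% of WT totals (SD, n = 3 each); over the list 8 of 28 tested genes rose and 15 fell (median log2 fold change -0.13), or 9 and 11 with equal library totals. SLC20A1, a sodium-phosphate cotransporter, had 13438, 13533 and 12775 normalized counts in the KO libraries, against 24499, 25094 and 24006 in the WT libraries, a 1.85-fold fall (log2 fold change -0.89, SE 0.038, adjusted p = 4.30e-10). SLC7A5, a carrier of large neutral amino acids, had 11868, 12412 and 12225 in the KO libraries, against 21896, 21624 and 22031 in the WT libraries, a 1.8-fold fall (log2 fold change -0.84, SE 0.035, adjusted p = 3.97e-10). The glucose carrier SLC2A1, the only member of the glycolysis list, fell 1.51-fold to 10824, 11348 and 11192 in KO libraries against 17272, 16404 and 16818 in WT libraries; 5 of the 15 tested genes of that list rose and 7 fell (median -0.03), or 6 and 5 with equal library totals.

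ATF4, a transcription factor of the amino acid response, fell 1.27-fold, with 12764, 12915 and 12846 normalized counts in the KO libraries, against 15664, 15842 and 17336 in the WT libraries (log2 fold change -0.34, adjusted p = 1.83e-05). ASNS, asparagine synthetase, had 9744, 9997 and 9470.3 in the KO libraries, against 16030.5, 16474 and 15839.5 in the WT libraries (log2 fold change -0.73, adjusted p = 3.52e-09). PSAT1, an enzyme of serine synthesis, had 16832, 16884 and 16041 in the KO libraries, against 24552, 27005 and 25289.5 in the WT libraries (log2 fold change -0.63, adjusted p = 3.75e-08), and GARS1, which charges glycine onto its tRNA and is on no list, was 1.46-fold lower. SCD, the fatty acid desaturase, rose 1.3-fold, with 26366, 27104 and 26877 in the KO libraries, against 20769, 20958 and 20304 in the WT libraries (log2 fold change 0.37, adjusted p = 7.37e-07). Of 46 tested genes of lipid and amino acid metabolism 7 rose and 24 fell (median log2 fold change -0.13), or 7 and 22 with equal library totals. ATP5F1B, the catalytic subunit of mitochondrial ATP synthase, fell 1.11-fold (log2 fold change -0.15, adjusted p = 0.00216), while 9 of 43 mitochondrial energy genes rose and 10 fell (median -0.03), or 16 and 9 with equal library totals.

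Translation factors kept about the same summed share in both groups. Their 9 members took 1.65 ± 0.0171% of KO and 1.65 ± 0.0145% of WT totals (SD, n = 3 each), and 1 rose, 2 fell and 6 did not pass. Over the list 3 of 39 tested genes rose and 16 fell (median log2 fold change -0.03). With equal library totals those counts were 11 and 13. EEF1A1, the factor that brings aminoacyl-tRNA to the ribosome, had 68661, 70398 and 69247 normalized counts in the KO libraries, against 73567, 79158 and 75891 in the WT libraries (log2 fold change -0.13, adjusted p = 0.00456), a call lost with equal library totals (adjusted p = 0.0729) and with limma's trend and robust options off (adjusted p = 0.0707). EEF2, which moves the ribosome along, had 57218, 59353 and 59871 in the KO libraries, against 58139, 54786 and 59296 in the WT libraries, and these groups overlapped (log2 fold change 0.04, adjusted p = 0.446). It passed as higher with equal library totals (adjusted p = 0.022). EIF4G1, the scaffold of the cap-binding complex, fell 1.27-fold, with 20629, 21369 and 23096 in the KO libraries, against 27246, 26435 and 28629.7 in the WT libraries (log2 fold change -0.34, adjusted p = 3.69e-05). Its helicase partner EIF4A1 had a log2 fold change of -0.03 and the related scaffold EIF4G2 of -0.08, and neither passed; EIF4G2 passed as lower without WT replicate 3. RACK1, a protein of the small ribosomal subunit, rose 1.09-fold (adjusted p = 0.0105), a call lost without KO replicate 2 or WT replicate 1 and with limma's trend and robust options off. The poly-A binding protein PABPC1, EEF1G and TPT1 had log2 fold changes of -0.06, 0.02 and -0.01 and did not pass.

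RNA-binding and chromatin proteins were the largest group of members, with 13, of which 0 rose, 7 fell and 6 did not pass; over the list 8 of 57 tested genes rose and 22 fell (median log2 fold change -0.05), or 13 and 15 with equal library totals. HMGB1, which bends DNA, had 14466, 13940.4 and 14149 normalized counts in the KO libraries, against 18554, 19827 and 19061 in the WT libraries, a 1.35-fold fall (log2 fold change -0.43, adjusted p = 5.68e-07). HMGA1, another chromatin architecture protein, and the histone chaperone SET fell 1.22-fold and 1.19-fold. NPM1, nucleophosmin of the nucleolus, fell by 0.15 on the log2 scale and the RNA-binding protein YBX1 fell by 0.11; both calls were lost with equal library totals and with limma's trend and robust options off, and that of YBX1 also without KO replicate 1, KO replicate 2, WT replicate 1 or WT replicate 3. HNRNPK fell by 0.09, a call lost without KO replicate 1, 2 or 3, or WT replicate 1 or 2, with equal library totals and with those options off. The splicing-related HNRNPA1, HNRNPA2B1 and HNRNPU, the helicase DDX5, nucleolin NCL and prothymosin PTMA had log2 fold changes from -0.07 to 0.10 and did not pass; PTMA passed as higher with equal library totals and without WT replicate 3. NCL varied little: it had 21078, 21096 and 21061 in the KO libraries, against 21065, 21474 and 22356 in the WT libraries.

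Chaperones and secretory proteins were divided. Of 6 members from the endoplasmic reticulum list 1 rose, 3 fell and 2 did not pass, and over that list 3 of 37 tested genes rose and 18 fell (median log2 fold change -0.13), or 7 and 12 with equal library totals. SEC61A1, the channel through which proteins enter the reticulum, had 15978, 17109.5 and 16478 normalized counts in the KO libraries, against 21656, 21198 and 22778 in the WT libraries, a 1.32-fold fall (log2 fold change -0.40, adjusted p = 1.95e-06). The lectin chaperones differed in direction. CANX, calnexin, had 24129, 24599.6 and 24442 in the KO libraries, against 27942, 29274 and 29872 in the WT libraries (log2 fold change -0.25, adjusted p = 5.82e-05). CALR, calreticulin, had 18288, 18929.5 and 19429 in the KO libraries, against 15516, 15217 and 17891 in the WT libraries (log2 fold change 0.22, adjusted p = 0.00541), a rise whose adjusted p was 0.0578 when limma's trend and robust options were off. PDIA3, a disulfide isomerase that works with both, fell 1.21-fold, while P4HB and HSP90B1 did not pass (both log2 fold changes -0.10), though P4HB passed as lower without WT replicate 2 and HSP90B1 without KO replicate 1. The cytosolic chaperone HSP90AA1 was at 32603 ± 565 in KO and 33092 ± 634 in WT and did not pass; 5 of 25 tested chaperones rose and 11 fell (median -0.09), or 6 and 6 with equal library totals. The lysosomal protease CTSD did not pass (log2 fold change 0.02). Its list held 12 rises and 4 falls among 31 tested genes (median 0.11), or 16 and 3 with equal library totals. UBB, ubiquitin B, fell 1.19-fold. The ubiquitin and proteasome list held 2 rises and 14 falls among 29 tested genes (median -0.12), or 2 and 10 with equal library totals.

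Signalling members were YWHAQ, RHOA and MET. YWHAQ, a 14-3-3 adaptor, had 13658, 13589 and 13383 normalized counts in the KO libraries, against 20166, 21303 and 19992 in the WT libraries, a 1.51-fold fall (log2 fold change -0.60, adjusted p = 2.04e-08). RHOA, the GTPase that drives actomyosin contraction, fell 1.21-fold, with 13842, 13899 and 13801 in the KO libraries, against 16282, 16429 and 17638 in the WT libraries. MET, the hepatocyte growth factor receptor, overlapped between groups at 16827 ± 152 in KO and 16987 ± 1342 in WT (SD, n = 3 each). Of 40 tested genes of that list 5 rose and 18 fell (median log2 fold change -0.11), or 6 and 14 with equal library totals.

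Some rows need care as to which gene their reads came from. CD74, the invariant chain of MHC class II and normally a marker of antigen-presenting cells, had 43391, 46776 and 49615 normalized counts in the KO libraries, against 42566, 39742 and 43145 in the WT libraries (log2 fold change 0.15, adjusted p = 0.0184), a call lost without KO replicate 2, KO replicate 3 or WT replicate 2 and by limma without trend and robust options. Its lowest KO library stood only just above its highest WT library. RefSeq annotation of the assembly UU_Cfam_GSD_1.0 served to find neighbours, and in its order CD74 lies beside the ribosomal protein gene RPS14, whose own row held 8318 to 8732 normalized counts in KO libraries and 8221 to 8726 in WT libraries. PARP6, an ADP-ribosyltransferase that lies beside the glycolytic gene PKM in that order, stands on 2 rows: the member row had 16089.5, 16592 and 17193 in the KO libraries, against 16603, 14591 and 16997 in the WT libraries and did not pass, while the other row had 362 to 422 in KO libraries and 346 to 381 in WT libraries. No row carried the symbol PKM. Whether reads of overlapping or adjacent genes were assigned to the CD74 and PARP6 rows was not tested. The tubulins, EEF1A1, HNRNPA1, HMGB1, NPM1, PTMA and FTL belong to families with near-identical copies or processed pseudogenes in mammals, and how shared reads were assigned to them cannot be told from the table. By the same gene order 87 members could be placed; 0 lie in the run of genes from SMOX to UBE2V1, and EIF4G1 alone lies in the run from TRIO to TBL1XR1.

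The 11 members without a symbol took 2.94 ± 0.205% of KO and 3.08 ± 0.479% of WT totals (SD, n = 3 each), and 1 was called higher, 3 lower and 7 did not pass. The files do not pair these identifiers with names. ENSCAFG00845018969, the first member, had 309663, 313889 and 373201 normalized counts in the KO libraries, against 416272, 281327 and 432573 in the WT libraries (log2 fold change -0.16, adjusted p = 0.587). ENSCAFG00845023477 varied most among all members, with 13478, 18544 and 24146 in the KO libraries, against 24075, 11149 and 23792 in the WT libraries, a coefficient of variation of 28.5% in KO and 37.5% in WT; the medians over the 100 members were 2.67% in KO and 3.66% in WT. Both rows were lowest, among WT libraries, in WT replicate 2. ENSCAFG00845005765 was 1.5-fold higher, with 24298, 23473 and 21736 in the KO libraries, against 15027, 16310.2 and 14896 in the WT libraries (log2 fold change 0.59, adjusted p = 3.33e-07), and ENSCAFG00845002564 was 1.34-fold lower, with 11990.0, 12478 and 12527 in the KO libraries, against 16526, 15837 and 17327 in the WT libraries (log2 fold change -0.42, adjusted p = 1.61e-06). The other 7 had log2 fold changes from -0.17 to 0.06.

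The ranking itself was largely shared by the groups. Of the 100 members, 83 were also among the 100 by KO mean, and the Spearman rank correlation of KO and WT means over the 100 members was 0.794, a description over genes that share libraries. The 17 that dropped out of the KO 100 included SNRPN, LAMB3, SLC20A1, SLC7A5, TSC22D1, ASNS, JUP and SLC2A1, all described above. Of these SNRPN, LAMB3 and ASNS reached KO places 1157, 199 and 186. The 17 that entered were led by THBS1, the matrix glycoprotein thrombospondin-1, with 17514, 18569.8 and 20064 normalized counts in the KO libraries, against 14197, 14286 and 14927 in the WT libraries. CTSB, a lysosomal protease, had 17361, 18152 and 18372 in the KO libraries, against 15223, 15107 and 15763 in the WT libraries. RRM2, a subunit of ribonucleotide reductase, had 16752, 17257 and 16622 in the KO libraries, against 14279, 14568 and 14697 in the WT libraries. The cell adhesion molecule L1CAM stood at KO place 73 and WT place 190, with 16183, 16128 and 17200.4 in the KO libraries, against 11116, 10208 and 11464 in the WT libraries. THBS1, CTSB, RRM2 and L1CAM were called higher. HSPG2, perlecan of the basement membrane, had 16069.9, 13752 and 19609 in the KO libraries, against 13346, 12756 and 13517 in the WT libraries. Its KO replicate 3 stood well above KO replicate 2, and it did not pass (adjusted p = 0.121). LOXL2, a collagen crosslinking oxidase chosen for mention after its values were seen, stood at KO place 87 and WT place 234 and was called higher. GNAS, ITGA3 and ATP5F1A entered although their KO means lay below their WT means, and they did not pass. CD79A, a B-cell receptor component, entered at KO place 98 with 13507, 13886 and 14608 in the KO libraries, against 13903, 12389.5 and 14011 in the WT libraries, and did not pass (adjusted p = 0.342). It lies beside the ribosomal protein gene RPS19 in the same gene order, and no row carried the symbol RPS19. Whether reads of the CD79A row came from that neighbour was not tested.

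The line at 100 fell among close values. Just inside it were HNRNPA1 at 15435, ENSCAFG00845005765 at 15411 and a further row without a symbol at 15402 normalized counts in the WT mean. Just outside were CTSB at 15364, the kidney cadherin CDH6 at 15274 and another row without a symbol at 15185.

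**Figure D4:**
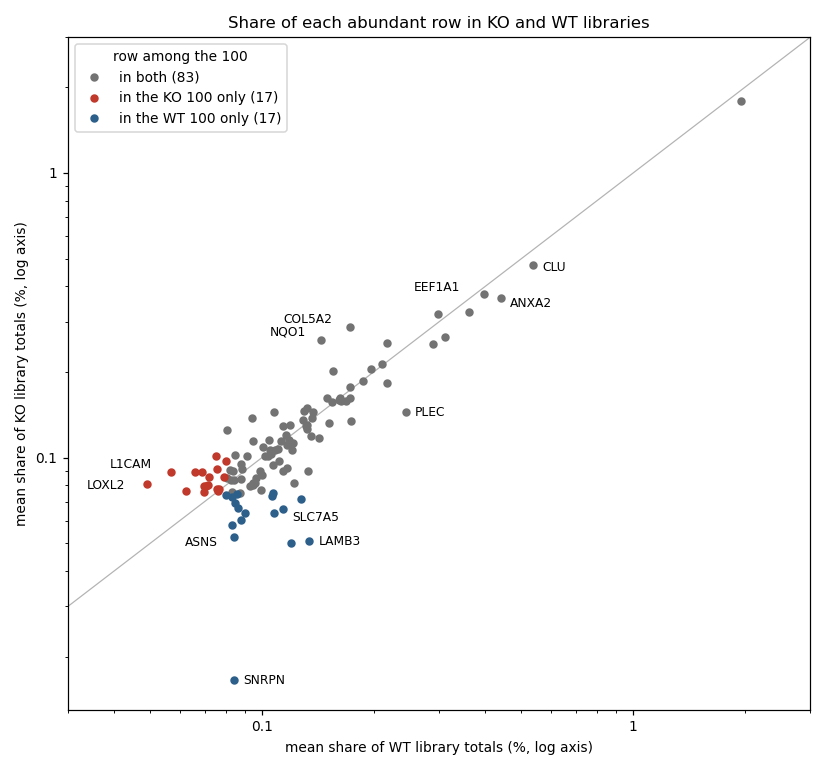
Mean share of KO library totals (y) against mean share of WT library totals (x), in % on log axes, for the 83 rows in both lists of 100 (grey), the 17 in the KO list alone (red) and the 17 in the WT list alone (blue); the line marks equal shares. Most rows lie near the line, SNRPN lies farthest below it, and the point at the upper right is the row ENSCAFG00845018969.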

How the data were processed

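RNA from 3 KO and 3 WT libraries was read as 75-base pairs from stranded poly-A libraries made from 250 ng of total RNA, per the labels' protocols. The submitters' processing notes name STAR 2.5.2b, featureCounts, DESeq2 1.14.1, Picard 2.8.1 and FastQC. Neither build nor annotation was given in the sources used. Counting by strand is not stated. The authors deposited a normalized count per gene and library, a signal scaled between libraries from which whole reads could not be recovered, so no count test was run. They also deposited a mean, p-values before and after adjustment, a log2 fold change with its error, and a score (fold change over error).

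The design had assumed raw counts; its fallback for normalized values was used. Values were taken as log2(value + 1), and the 12349 of 12851 genes averaging 10 or more were tested two-sided with limma 3.58.1 in R 4.3.3 (trend and robust options), with Benjamini-Hochberg adjustment over all of them and a threshold of 0.05. Fold changes are on that log2(value + 1) scale. Ranks and shares of library totals use all rows, and every member passed the filter. The test was tried on simulated data first. The depth behind each member is large, so the spread between 3 libraries, and not counting, limits the precision.

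Rows with symbols starting with RPL, RPS, MRPL or MRPS were left out of the ranking. Other symbols to leave out were CDH1, SPP1, VIM, ACTB, ACTG1, KRT15, KRT18, KRT19, GAPDH, ENO1, PKM, LDHA, ALDOA, HSPA5, HSP90AB1, HSPA8, CTNNA1 and FN1. Gene lists hold 19 groups by function, and the members and lists were chosen with earlier results of these data known. The genes named first were, by rule, the 10 with the highest WT mean, the 10 largest rises and 10 largest falls, up to 3 per list, the 3 rows on either side of the line at 100, and the first 5 entrants and last 5 leavers; other members with a symbol were added to account for the set. A few members are not reported here singly and are left out of the figures' labels and of the plots by gene, but count in every total. Sequences and transcript lengths were not used here. Alternatives were other pseudocounts, filters, scaling, totals, member choice, a replicate block and leaving out each library.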

Additional observations from a re-analysis of the deposited data

Results flagged for a closer look

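The authors' deposited mean is not the mean of the 6 library values, and what entered it is not stated in the sources used here. For 15 of the 100 members it lay above all 6 library values, and for 29 it lay below all 6; among all genes tested 15.9% lay above and 11.3% below. A deposited value outside the range of the 6 libraries is what drew attention to these members. In the authors' deposited table PI4K2A had a mean of 23807.6, TIMP3 of 32722.5, TUBA1B of 44497.3 and PARP6 of 19992.3 normalized counts, each above all 6 libraries. Among the members below all 6 libraries, NQO1 had a deposited mean of 26029.4 and LGALS3 of 50083.6. Over the 100 members the ratio of the deposited mean to the mean of the 6 libraries ran from 0.688, in NQO1, to 1.51, with a median of 0.945. With 3 libraries a group, no test for a single deviating library was run.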

How the results depend on the processing

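Over the 100 members, 53 of the 63 calls passed under every alternative run, 56 passed without each library in turn, and 0 changed direction. The count of members called higher was 11; it was 20 with equal library totals, 7 with limma without trend and robust options, and 21 for rows chosen by the KO mean. Past 1.5-fold those rows gave 5 higher and 3 lower. The summed KO share was 15.0% for rows chosen by the KO mean. Against totals without ribosomal and left-out symbols it was 16.3% in KO and 17.3% in WT. Without the leading row, an alternative chosen after seeing the data, it was 12.8% in KO and 13.7% in WT. Leaving out 1 library at a time gave 9 to 12 members higher and 48 to 57 lower, 2 to 3 higher and 11 to 13 lower past 1.5-fold, 2493 to 2918 genes higher and 2559 to 2998 lower over the whole table, and summed shares of 14.5 to 14.7% in KO and 15.4 to 15.9% in WT. With the replicate number as a block, 12 members were higher and 54 lower; HNRNPK lost its call, and MYH9 (higher), ACTN4 (lower) and 2 rows without a symbol gained one. Libraries with the same number share only that number: their deviations correlated at 0.0537, -0.0256 and -0.0395. The other alternatives for these counts and shares stayed within 1.5 times or 1 SD. The cause of each change was not tested. With 3 libraries a group, small differences between groups may go uncalled.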
